A study of Drosophila melanogaster with 6 samples.

Results

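A set of 47 Drosophila genes still known by a CG number gave at least 2-fold less signal in foxL1 null embryos than in wild-type embryos. They were chosen from the deposited values themselves. A gene was taken if its current symbol is CG followed only by digits, if the mean of the 3 null arrays lay at least 1 log2 unit below the mean of the 3 wild-type arrays, and if the highest null value lay below the lowest wild-type value. Each gene was represented by its probe set with the highest mean over the 6 arrays. The rule took 47 of 5137 measured CG genes, 0.915%, out of 11981 genes measured in all. The same size and overlap condition took 1.02% of all genes. Since the genotype difference chose these genes, every such difference below is a description and no test is attached to it.

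A CG symbol is the identifier that the fly genome annotation gives a predicted gene, and it is kept until a study names the gene. Such a gene may encode an enzyme, a transporter or a short protein of unknown function, and the gene table used here gives no role for any of the 47. It does list aliases for some: CG18661 is also METTL26, CG11403 is also Chl1, and CG15876 and CG13712 carry the aliases HL3 and HL4. FoxL1 is a forkhead transcription factor, a member of a family of DNA-binding proteins that regulate organ formation in the embryo. In stages 11 to 15, the stages the labels give, the fly embryo retracts its germ band, closes its back and forms its gut and muscles.

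The null embryos carried the alleles foxLCr and foxL1del, a genotype the labels call a foxL1 knockout, and the control was the wild-type line Oregon R. The labels do not say what either allele removes. Whole embryos were used, with 3 arrays per genotype, described in the labels as independent biological samples. For both genotypes the labels give an 8 h collection and 11 h of ageing at room temperature. The genotypes are separate fly lines, so the foxL1 alleles and the genetic background cannot be told apart. In whole embryos, fewer cells of a type and less RNA per cell cannot be told apart either. Nor can the labels separate the genotype from a different mix of ages within the 8 h collection.

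The values are log2 signals from robust multi-array averaging (RMA), on Affymetrix Drosophila Genome 2.0 arrays. Array medians lay between 4.87 and 4.94 in the null group and between 4.96 and 5.08 in the wild type, and the 25th percentile of each array lay between 2.97 and 3.01. Differences that reach down to that level may be understated. FoxL1 itself read 4.23, 4.35 and 3.37 on the null arrays, against 4.85, 5.12 and 5.01 on the wild-type arrays. Null array 3 had the lowest 3' minus 5' difference of the actin control probe sets, 0.20, against 0.67 to 0.82 on the other 5 arrays, and of the eIF-4a ones, 0.71 against 0.88 to 0.93. For GAPDH it had the highest, 0.62 against 0.43 to 0.53. Its array weight was the lowest, 0.317. With 3 arrays a genotype, the precision of each value is limited by their number.

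The 47 genes ran from 4.78-fold to 2.04-fold lower, with a median of 2.44-fold, which is a log2 difference of -1.29. The median log2 difference over all genes was -0.07. Of the 47, 4 were at least 4-fold lower, 13 had log2 differences between -2 and -1.5, and 30 lay between -1.5 and the threshold of -1. The space between the highest null and the lowest wild-type value was at least 1 log2 unit for 14 genes and under 0.2 for 3. Taking arrays of the same number together, 38, 38 and 40 of the 47 were at least 2-fold lower in pairs 1, 2 and 3. In all 3 pairs 30 were so. The titles do not explain the numbers. The rule set the mean of the 3 differences at -1 or lower and made each of them negative, so these counts are a description. Limma, a linear model fitted across all 18769 probe sets with Benjamini-Hochberg adjustment, called 41 of the 47 lower at an adjusted threshold of 0.05, where 4.00% of all genes, 3.43% of CG genes and 3.12% of all probe sets were called lower. The rule used the same contrast, so that count is not evidence about them. Without null array 3 the rule took 75 CG genes, 40 of them among the 47, whose median difference was then -1.26. The standard errors (SE) below are limma's.

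**Figure D1:**
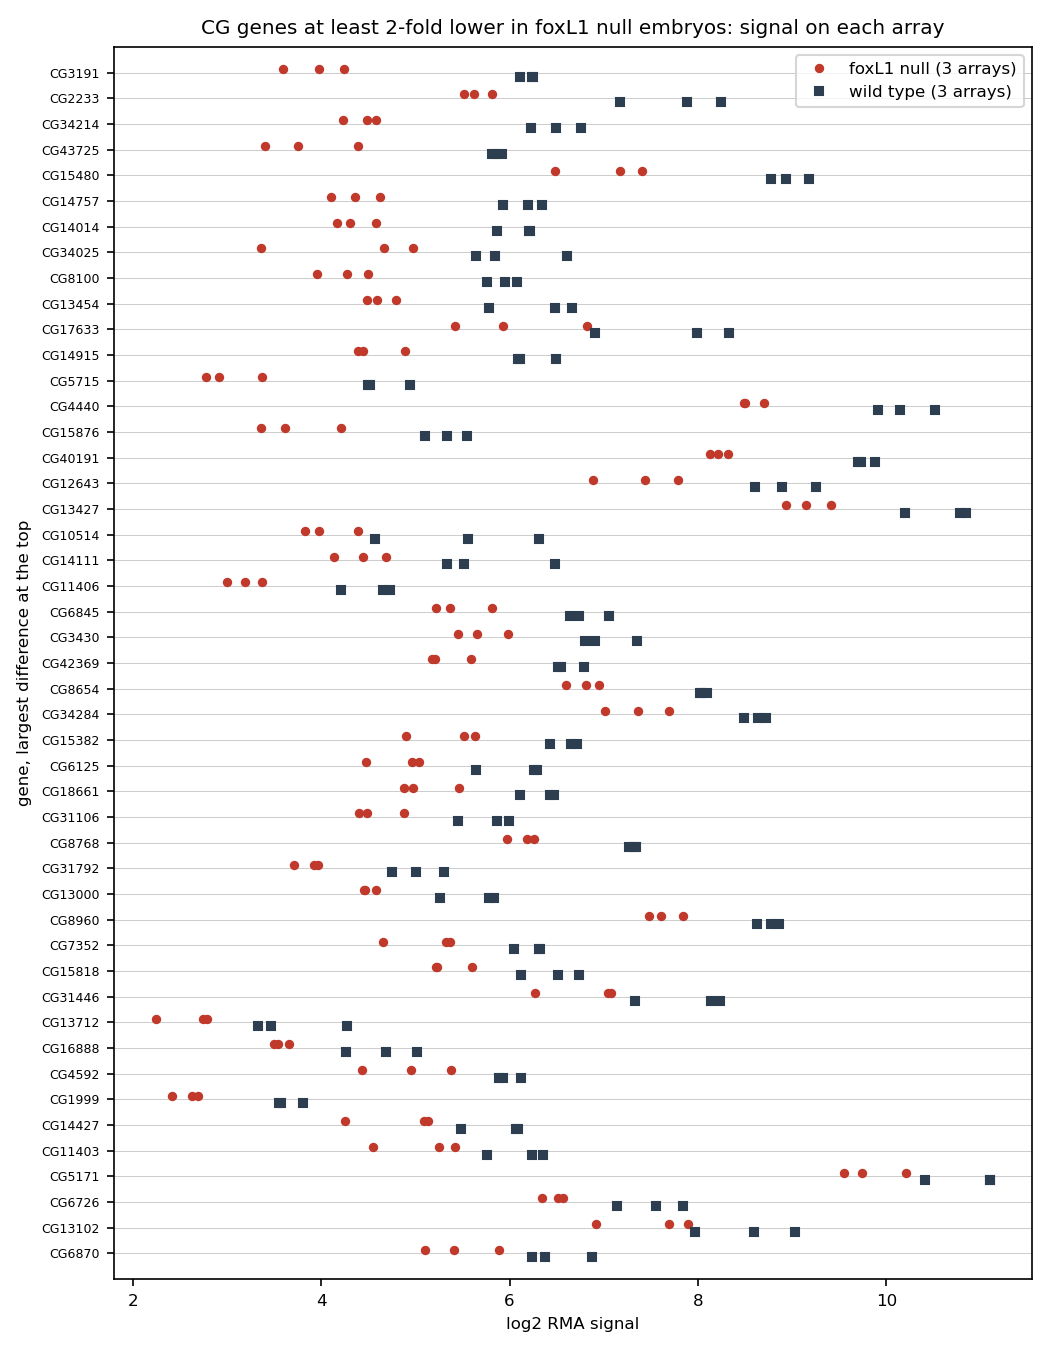
Log2 RMA signal (horizontal axis) of each of the 47 CG genes (rows, largest difference at the top), with the 3 foxL1 null arrays as red circles and the 3 wild-type arrays as dark squares. The rule itself separates the 2 groups in every row; the space between them is widest for CG3191, at 1.87, and narrowest for CG13102, at 0.07.

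CG3191, on the X chromosome, stood furthest from the wild type. It read 4.25, 3.59 and 3.98 on the null arrays and 6.23, 6.11 and 6.24 on the wild-type arrays, a log2 difference of -2.26 (SE 0.17). The wild-type arrays lay within 0.13 of each other, while the null arrays spread over 0.65. CG2233, also on the X, read 5.51, 5.62 and 5.81 in the null group and 8.24, 7.17 and 7.89 in the wild type (-2.12, SE 0.25), and here the wild type was the group with the wide spread. Among the 15 genes with the greatest differences, CG2233, CG13454 and CG4440 had a wild-type SD more than 2 times the null SD, and CG3191, CG43725 and CG15480 had the reverse.

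CG34214, on arm 2R, read 4.58, 4.24 and 4.48 in the null group and 6.49, 6.76 and 6.23 in the wild type (-2.06, SE 0.16). The annotation also assigns this gene a probe set that it shares with its neighbour CG4806, which has no probe set of its own. The shared probe set read 7.50, 7.57 and 7.69 on the null arrays and 7.25, 7.40 and 7.34 on the wild-type arrays, higher in the null group by 0.26 (SE 0.10). The signals of the 2 probe sets thus lay in opposite directions, and the shared one cannot be given to either gene. For each of the 47 genes the one probe set named for it alone is the only one of its kind, so within-gene agreement between probe sets could not be examined.

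CG43725 and CG14915 are next to each other on arm 2L in the gene order of the Release 6 assembly, and both belong to the 47. CG43725 read 4.40, 3.40 and 3.76 in the null group and 5.82, 5.86 and 5.92 in the wild type (-2.01, SE 0.23). CG14915 read 4.89, 4.45 and 4.40 in the null group and 6.09, 6.49 and 6.11 in the wild type (-1.66, SE 0.17). For both genes null array 1 was the highest of its group, as it was for 51.1% of the 47 and 34.1% of all genes.

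Several of the strongly lower genes were bright in the wild type. CG15480 (arm 2L) read 7.41, 7.17 and 6.49 in the null group and 9.17, 8.94 and 8.77 in the wild type (-1.94, SE 0.23). CG4440 (arm 2L) read 8.49, 8.50 and 8.70 in the null group and 10.51, 10.15 and 9.91 in the wild type (-1.63, SE 0.16). CG4440 thus stayed well above the median of all genes in the null embryos, at percentile 82.2, against percentile 96.0 in the wild type. In 9 of the 47 genes the wild-type mean exceeded the 75th percentile of all genes, 8.08, and their differences ran from -1.94 to -1.03. They were CG15480, CG4440, CG40191, CG12643, CG13427, CG34284, CG8960, CG5171 and CG13102. Of these, CG40191 had the smallest SE of the 47. It read 8.12, 8.22 and 8.32 in the null group and 9.70, 9.88 and 9.73 in the wild type (-1.55, SE 0.11). The probe sets of CG40191, CG5171 and CG6726 carry the suffix that Affymetrix gives to probes matching more than 1 transcript, so their signal may include a related transcript. CG5177 and CG5160, the genes on either side of CG5171, differed by -0.21 (SE 0.22) and -0.12 (SE 0.12).

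Other genes with large differences had wild-type means below the median of all genes. CG14757 (arm 2R) read 4.63, 4.11 and 4.36 in the null group and 6.34, 6.20 and 5.93 in the wild type (-1.79, SE 0.17). CG14014 (arm 2L) read 4.58, 4.30 and 4.17 in the null group and 6.21, 6.22 and 5.86 in the wild type (-1.75, SE 0.15). CG8100 (arm 3L) read 4.27, 3.96 and 4.50 in the null group and 5.76, 6.08 and 5.95 in the wild type (-1.69, SE 0.16). In these 3 genes the groups stood more than 1 log2 unit apart at their nearest values. CG13454 (arm 3L) read 4.60, 4.80 and 4.49 in the null group and 6.67, 6.48 and 5.78 in the wild type (-1.68, SE 0.22). CG5715 (arm 3R) read 2.78, 2.92 and 3.37 in the null group and 4.52, 4.95 and 4.50 in the wild type (-1.64, SE 0.19). The null level of CG5715 lay below the 25th percentile of all genes, where a difference may be understated.

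In a few genes the arrays of a genotype differed widely among themselves. CG34025 (arm 3L) read 4.97, 4.67 and 3.36 in the null group and 6.61, 5.85 and 5.64 in the wild type (-1.70, SE 0.42), with null array 3 more than 1 log2 unit under the other null arrays and a difference of -1.21 without it. CG17633 (arm 2L) read 5.93, 5.42 and 6.82 in the null group and 8.33, 6.90 and 7.99 in the wild type (-1.68, SE 0.44). Its null array 3 and its wild-type array 2 were separated by only 0.08. Limma did not call either gene, nor CG10514, CG31446, CG14427 or CG13102, whose log2 differences lay at -1.42, -1.11, -1.06 and -1.03. When the replicate numbers, which the titles do not explain, entered the fit as a block, all 47 were called, these 6 included. With that block the calls of lower signal over all 18769 probe sets also rose, from 585 to 1297.

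CG15876 and CG13712 carry aliases from a numbered series, HL1 to HL6, that the gene table assigns to 6 genes of arm 3L. What the letters stand for is not given in that table. The 6 genes were looked at together because of these aliases, after the values of CG15876 and CG13712 had been seen. CG15876 (HL3) read 4.21, 3.37 and 3.62 in the null group and 5.34, 5.55 and 5.10 in the wild type (-1.60, SE 0.22). CG13712 (HL4) read 2.79, 2.74 and 2.24 in the null group and 3.47, 4.27 and 3.33 in the wild type (-1.10, SE 0.26), all near the floor of the arrays. CG13713 (HL2), which lies between these genes, had no overlap between the genotypes either but missed the 2-fold condition, at 3.67 ± 0.07 in the null group and 4.57 ± 0.33 in the wild type (SD, n = 3 each; log2 difference -0.90). CG13711 (HL5) read 3.85, 3.75 and 3.67 in the null group and 4.46, 5.02 and 4.30 in the wild type (-0.84, SE 0.19). CG13716 (HL1), the dimmest in the wild type, overlapped between the genotypes, at 2.87 ± 0.28 in the null group and 3.22 ± 0.24 in the wild type (SD, n = 3 each).

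The remaining gene of the series, HL6, is SNCF, which is active in the cellularising blastoderm. SNCF has a symbol of its own and so is not among the 47, but it met the same condition, at 7.67, 6.55 and 6.12 in the null group and 9.13, 8.91 and 8.46 in the wild type (-2.05, SE 0.37). It is the direct neighbour of CG14111, which read 4.69, 4.14 and 4.45 in the null group and 6.48, 5.33 and 5.52 in the wild type (-1.35, SE 0.29). The gene halo, which directs the transport of lipid droplets in the blastoderm embryo, read 6.09, 5.42 and 5.62 in the null group and 7.89, 7.98 and 7.41 in the wild type (-2.05, SE 0.21). For CG15876 and CG13712 the rule itself required every null value to lie below every wild-type value. Of the other 4 HL genes 3 had that order, as 17.8% of all genes did, and without null array 3, which makes it easier to meet, 4 had it, as 22.7% of all genes did.

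**Figure D2:**
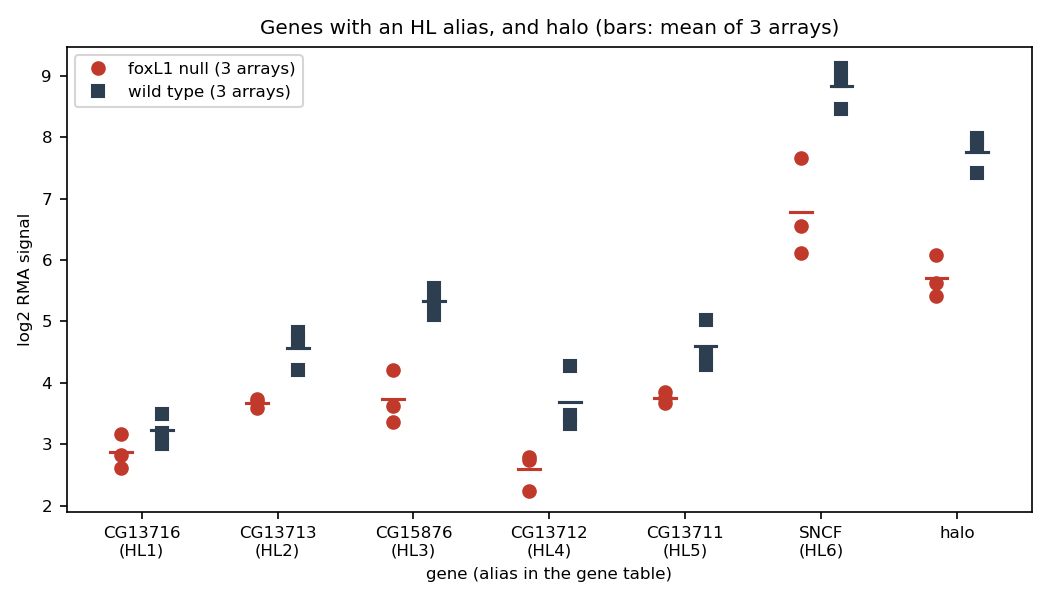
Log2 RMA signal (vertical axis) of the 6 genes with an HL alias and of halo, with each foxL1 null array as a red circle to the left, each wild-type array as a dark square to the right, and a short line at each mean of 3 arrays. CG13716 alone overlaps between the genotypes, and CG15876, CG13712, SNCF and halo are at least 2-fold lower in the null group.

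Beyond the pair of CG43725 and CG14915, 3 further pairs of the 47 lay within 10 places of each other among protein-coding genes, each 2 or 3 places apart. CG15876 and CG13712 were separated by CG13713 alone. CG18661 and CG13102 on arm 2L were separated by Try29F, at -0.38 (SE 0.22), and by CG9568, at -0.74 (SE 0.26). CG18661 read 4.88, 4.98 and 5.46 in the null group and 6.42, 6.47 and 6.11 in the wild type (-1.23, SE 0.18). CG13102 read 7.89, 6.91 and 7.69 in the null group and 9.03, 7.97 and 8.59 in the wild type (-1.03, SE 0.32), with the closest values of any of the 47. CG5171 and CG15818, also on arm 2L, were separated by CG5177 and by CG5181, which was higher in the null group by 0.50 (SE 0.11). CG15818 read 5.23, 5.60 and 5.22 in the null group and 6.12, 6.74 and 6.52 in the wild type, and CG5171, the brightest of the 47, read 9.55, 10.21 and 9.74 in the null group and 10.41, 11.10 and 11.09 in the wild type.

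The genes beside the 47 were mostly not lower to a like extent. Of 82 measured neighbours outside the set, 54 had a difference below 0, which is 65.9%, against 60.0% of all genes. Their median log2 difference was -0.14, and they ran from -2.05 to 0.63. SNCF was the 1 neighbour that met the same condition, 1.22% of them, against 1.02% of all genes. Beside CG14427 lies nullo, a gene of blastoderm cellularisation, at -0.71 (SE 0.18), and beside CG34284 lies CG14292, at -0.82 (SE 0.23).

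Arm 2L held more of the 47 genes than any other arm, 17 genes or 36.2%, while 18.5% of the measured CG genes lie there. The arms 3L and 3R held 8 each, and the X and 2R held 7 each. Put per arm, the rule took 1.79% of the measured CG genes of 2L and between 0.638% and 0.795% of those of the X, 2R, 3L and 3R. Of the 75 genes with another symbol that met the same condition, 21.3% lay on 2L, where 18.3% of such genes lie, and of the 66 CG genes at least 2-fold higher without overlap 18.2% did. FoxL1 lies on 3L. Without null array 3, 21 of the 75 genes that met the rule lay on 2L, or 28.0%. The arm counts were examined after the members were known and carry no test.

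**Figure D3:**
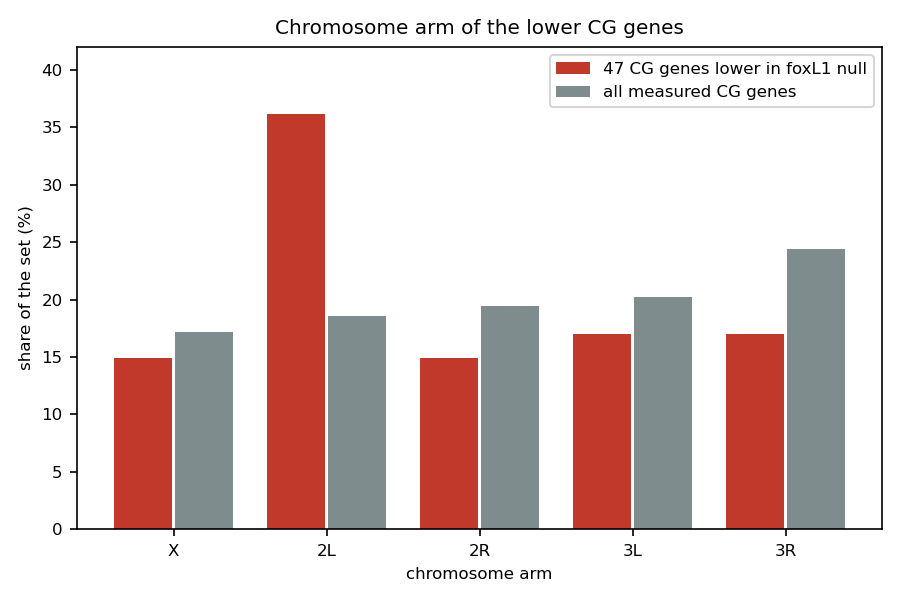
Share of the set in percent (vertical axis, from 0) by chromosome arm (horizontal axis), for the 47 lower CG genes in red on the left and for all 5137 measured CG genes in grey on the right. Arm 2L holds 36.2% of the 47 and 18.5% of all CG genes, and each other arm shown holds a smaller share of the 47 than of all CG genes.

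The arrays of a genotype did not all read alike for the 47 genes. Wild-type array 3 was the lowest of its group for 26 of the 47 (55.3%, against 32.7% of all genes) and the highest for 4. Null array 3 was the lowest for 20 (42.6%, against 49.1% of all genes). For 17 of the 47 both were lowest, 36.2%, against 19.2% of all genes and 45.3% of the 75 lower genes with another symbol. These 17 were CG15480, CG14014, CG34025, CG13454, CG11406, CG3430, CG42369, CG8654, CG15382, CG13000, CG8960, CG7352, CG13712, CG16888, CG4592, CG14427 and CG11403. Array 3 chose this group, so its low values there are a description.

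A list of genes active in the blastoderm embryo also had its lowest mean on array 3 of each genotype. Its 19 measured genes of 22 included halo, SNCF and nullo. Their mean log2 signal was 6.35, 6.39 and 5.93 on the null arrays and 7.15, 7.23 and 6.95 on the wild-type arrays. Single genes did not all follow the mean, since bnk and eve were highest on array 3 of both genotypes. Null array 3 was also the lowest of its group for 49.1% of all genes. The labels give these embryos later stages than the blastoderm. Whether the signal of these genes marks that earlier stage was not tested. All 19 differences were below 0, as 60.0% were over all genes, with a median of -0.75 and a range from -2.05 to -0.08. The same condition as for the 47 was met by 6 of them, Z600, halo, SNCF, Sry-alpha, bnk and gt, and by 1.02% of all genes. Without null array 3, 18 of the 19 were below 0, as 56.9% were over all genes, with a median of -0.66. On all 6 arrays limma called 8 of the 19 lower, against 4.00% of all genes, and 0 higher. The list was chosen with earlier results of these arrays known, so its direction is no independent evidence, and its part in the result was not tested.

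A smaller group varied differently. For CG2233, CG17633, CG10514, CG6125, CG31446 and CG13102, wild-type array 2 lay at least 0.5 under both other wild-type arrays, which is 12.8% of the 47, against 3.97% of all genes. CG10514 (arm 3R), for example, read 4.39, 3.83 and 3.98 in the null group and 6.31, 4.57 and 5.56 in the wild type. For 5 of these 6 genes null array 2 was also the lowest null array, as it was for 36.2% of the 47 and 31.1% of all genes. Array 2 was the lowest of both genotypes for 10 of the 47, 21.3%, against 17.6% of all genes. The group was picked by its low wild-type array 2, so that pattern is a description.

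A list of larval cuticle genes had its lowest mean on array 2 of each genotype. Not every gene of the list followed that mean, and Cpr64Ab, for example, was lowest on array 3 of both genotypes. The 16 measured of 24 listed cuticle genes averaged 7.04, 6.51 and 7.06 on the null arrays and 7.38, 6.70 and 7.02 on the wild-type arrays, and limma called 0 of them in either direction. Their median difference was -0.18. The 20 measured of 26 listed midgut digestion genes averaged 5.78, 5.92 and 6.53 on the null arrays and 7.69, 5.45 and 5.98 on the wild-type arrays, with a median difference of -0.25, and 1 of them, Jon44E, was called lower and 0 higher. The part of these lists in the differences of the 47 was not tested.

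**Figure D4:**
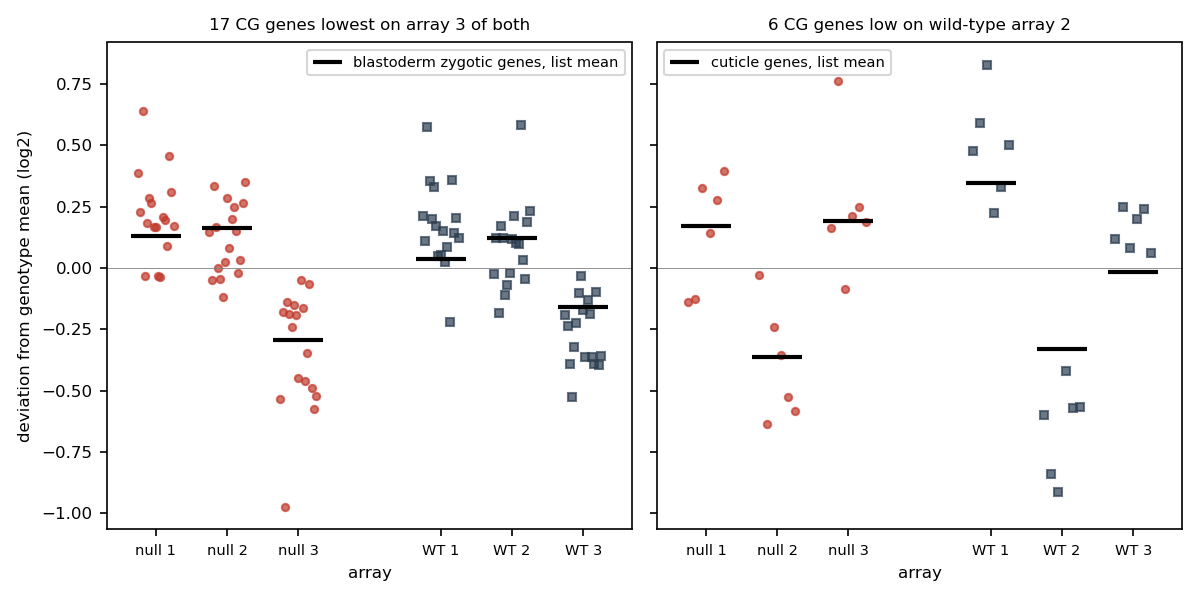
Deviation of each gene's log2 signal from its own genotype mean (vertical axis) on each array (horizontal axis; null arrays as red circles, wild-type arrays as dark squares), with black lines at the deviation of a list mean. Left, the 17 CG genes lowest on array 3 of both genotypes beside the blastoderm genes; right, the 6 CG genes low on wild-type array 2 beside the cuticle genes, whose mean deviated by -0.36 on null array 2 and by -0.33 on wild-type array 2.

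The 47 genes were dimmer than the median gene of the array and more variable within a genotype. Their median signal was 5.08 in the null group and 6.31 in the wild type, while the medians over all CG genes were 5.05 in the null group and 5.24 in the wild type. The median of all genes was 6.38 in the null group and 6.48 in the wild type. In the null embryos 35 of the 47 lay below the median of all genes and 6 below the 25th percentile, 3.74. These 6 were CG5715, CG15876, CG11406, CG13712, CG16888 and CG1999. The rule asked for a null level below that of the wild type, so these null ranks are partly built in. By wild-type mean, 2 of the 47 lay below the 25th percentile of all genes and 24 between it and the median. The median within-group SD of the 47 was 0.27 in the null group and 0.28 in the wild type, against 0.19 in the null group and 0.12 in the wild type over all genes. The SDs of single genes ran from 0.07 to 0.86 in the null group and from 0.04 to 0.87 in the wild type.

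The 66 CG genes that met the mirrored condition, higher in the null group, were 1.28% of the measured CG genes. They differed in level, with medians of 7.40 in the null group and 6.04 in the wild type. Their median within-group SD was smaller than that of the 47, 0.18 in the null group and 0.17 in the wild type. The 75 lower genes with another symbol, 1.10% of such genes, had a median log2 difference of -1.26 and median within-group SDs of 0.28 in the null group and 0.26 in the wild type, within 0.02 of those of the 47. None of these differences between sets was tested, since the contrast defined all 3.

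Besides the genes already given, some of the remaining ones were lower with little spread. CG8654 (arm 2R) read 6.95, 6.81 and 6.60 in the null group and 8.10, 8.03 and 8.02 in the wild type (-1.26, SE 0.12). CG8768 (arm 2R) read 6.18, 5.97 and 6.26 in the null group and 7.27, 7.32 and 7.34 in the wild type (-1.17, SE 0.11). In both, the wild-type arrays lay within 0.08 of each other. CG13427 (arm 2R), one of the brightest, read 8.93, 9.42 and 9.15 in the null group and 10.84, 10.78 and 10.20 in the wild type (-1.44, SE 0.20). CG12643 (X) read 6.89, 7.79 and 7.44 in the null group and 8.60, 9.26 and 8.90 in the wild type (-1.54, SE 0.25), with array 2 the highest and array 1 the lowest of both genotypes.

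CG11403 (X), with the alias Chl1, read 5.25, 5.43 and 4.55 in the null group and 6.24, 6.35 and 5.76 in the wild type (-1.04, SE 0.25). Its null array 3 and wild-type array 3 were the lowest of their groups.

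The other genes are given by their differences. Those of CG11406, CG6845, CG3430, CG42369, CG34284, CG15382 and CG6125 lay between -1.34 and -1.24. Those of CG31106, CG31792, CG13000, CG8960 and CG7352 lay between -1.18 and -1.11. Those of CG16888, CG4592 and CG1999 lay between -1.09 and -1.06. The 32 genes outside the 15 with the greatest differences had a median log2 difference of -1.16, with wild-type means from 3.64 to 10.87.

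At the edge of the rule the values ran on without a break. The 3 genes just inside it were CG6870, CG13102 and CG6726. CG6870 (arm 2L) read 5.89, 5.10 and 5.41 in the null group and 6.88, 6.38 and 6.24 in the wild type (-1.03, SE 0.23). CG6726 (arm 3R) read 6.51, 6.35 and 6.57 in the null group and 7.84, 7.14 and 7.55 in the wild type (-1.03, SE 0.18). The 3 CG genes just outside were CG9961, CG17760 and CG6885, at -0.99, -0.99 and -0.98. CG9961 read 3.66, 3.96 and 3.92 in the null group and 4.83, 5.02 and 4.66 in the wild type, a space of 0.70 between the genotypes, against 0.35 for CG6870.

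Another 7 CG genes had a mean difference of at least 2-fold but overlapped between the genotypes and were left out. The greatest was CG14423, at 4.09, 3.90 and 4.17 in the null group and 8.15, 4.05 and 4.75 in the wild type, where wild-type array 1 alone stood high. CG14565 read 4.40, 4.16 and 7.76 in the null group and 6.14, 5.97 and 8.62 in the wild type, high on array 3 of both genotypes. The remaining 5 were CG14568, CG18088, CG33272, CG10912 and CG34224, with differences from -1.37 to -1.01.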

How the data were processed

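Total RNA of whole embryos was labelled and hybridised to 6 arrays, 3 per genotype. The authors deposited log2 expression values; the submitters' processing notes name Partek and RMA without versions. The 183 control probe sets were left out, and 18769 of 18952 were kept. Of these 13646 name 1 gene, 402 several and 4721 none; 13543 were given current symbols by matching gene identifiers to RefSeq's gene table (Release 6 plus ISO1 MT), and 103 kept an older symbol. That table gave names, aliases, arms and gene order only, since the sources used here name no build. No sequence was used. Detection calls were not used here.

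Differences are null minus wild type in log2 units, fitted with limma 3.58.1 in R 4.3.3 (lmFit, eBayes, no covariate) and adjusted over all probe sets. The fit was also run on simulated data with independent noise on each array. Those data lacked the shared deviations of the real arrays, so that run does not bear on the calls here. The members and lists were chosen with earlier results of these data known. Array values are printed for the 15 genes with the greatest differences, those beside the threshold, those near another of the 47 and those with a disagreeing probe set; further genes were picked after their values were seen. The lists were blastoderm, midgut digestion and cuticle genes. Same-numbered arrays deviated together from their group means (correlations of 0.108, 0.544 and 0.224), so the numbers, which the titles do not explain, were taken as pairs on the data alone; null array 3 matched wild-type array 1 more closely (0.266). The alternatives comprised a replicate block, leaving out single arrays, other scalings, other variance models, other probe set rules and a filter on dim probe sets.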

Additional observations from a re-analysis of the deposited data

How the results depend on the processing

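The set of 47 was recomputed under 11 alternatives, and 32 of its genes met the rule in all of them, among them the 10 with the greatest differences. The same rule on the same arrays had chosen the 47, so genes further past the threshold stay more readily and this count is a description. Allowing overlap, or averaging a gene's probe sets, could remove none of the 47. Quantile normalization left 38 genes and centring each array on its median left 33; these scalings moved the median of all genes from -0.07 to -0.04 and to 0.05. Leaving out 1 array gave between 40 and 85 genes. The count was 75 without null array 3 and 85 without wild-type array 2, and 40 and 42 of those were among the 47. The share of genes on arm 2L, recomputed without null array 3 as an alternative chosen after seeing the data, was 28.0%, against 36.2%. Limma called 41 of the 47 lower, 47 with the replicate block and between 32 and 38 with 1 array left out. The block thus added CG34025, CG17633, CG10514, CG31446, CG14427 and CG13102. Over all probe sets limma called 585 lower, 1297 with the replicate block, 1040 with array weights, 324 after centring and between 213 and 568 with 1 array left out, the lowest without wild-type array 1. The cause of these shifts was not tested. Signal over background limits the 6 genes below the 25th percentile of null means, whose differences may be understated.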
